A study of Mus musculus with 26 samples.

Results

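Hox genes lie in 4 clusters in the mouse, and 34 of them are described here in mouse embryonic stem cells (ESCs) and in neural progenitor cells (NPCs) made from them. They were found by symbol, as every gene named Hox with a cluster letter and a paralog number, without the posterior Hoxa genes Hoxa7, Hoxa9, Hoxa10, Hoxa11 and Hoxa13. Both tables of counts hold 39 Hox genes among 55291 gene symbols, of which these 5 were set aside. The 34 genes are 6 Hoxa genes (chromosome 6), the 10 Hoxb genes (chr11:96194316-96368256 of mm10), the 9 Hoxc genes (chr15:102921103-103036852) and the 9 Hoxd genes (chr2:74668310-74765142). No measured value entered the choice. By paralog number, 12 of them are anterior (1 to 4), 10 central (5 to 8) and 12 posterior (9 to 13).

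CTCF is a zinc finger protein that anchors chromatin loops, and its first zinc finger is an RNA-binding region. The study asked whether that region is needed to maintain loops particular to a cell type. It also asked how deleting the region (ΔZF1) changes gene expression within such loops. Further, 2 RNAs that bind CTCF were cut short to test loops at their genes. Only the RNA-seq counts are described here. The rescue experiment has 4 groups of 2 libraries (ESC-WT and NPC-WT with WT rescue, ESC-ΔZF1 and NPC-ΔZF1 with mutant rescue). All 4 groups are E14 cells with a homozygous mAID-eGFP tag on the endogenous CTCF, a heterozygous OsTIR1 variant at Rosa26, a homozygous mCherry reporter at Hb9 that was not used, and a homozygous doxycycline-inducible Flag-Halo CTCF, either WT or ΔZF1, at the Tigre locus. All 4 were treated with 1 µM 5-Ph-IAA, which degrades the tagged CTCF, and with 1 µg/ml doxycycline for 24 hours. The WT rescue is 1 clone and the ΔZF1 rescue is another, so that an effect of ΔZF1 and a difference between the clones cannot be told apart. The truncation experiment has 6 groups of 3 libraries, namely untreated E14 WT, Podxl pA and Grb10 pA cells as ESCs and as NPCs. Podxl pA and Grb10 pA carry a homozygous insert of eGFP and an SV40 polyadenylation signal that ends the RNA of Podxl, a sialomucin of the cell surface, or of Grb10, an imprinted adaptor of growth factor receptors, early in the gene. The number of clones behind these groups is not given in the sources used here. An effect of a truncation and a difference between the lines therefore cannot be told apart. ESCs were kept on gelatin in N2B27 medium with leukemia inhibitory factor and the kinase inhibitors CHIR99021 and PD0325901. NPCs were cells kept for 2 days in N2B27 medium on laminin without these additions. Every comparison of NPCs with ESCs is therefore also one of medium and coating. Each library is total RNA after removal of ribosomal RNA, counted on genes without regard to strand. The methods call the libraries biological replicates, and nothing says that they came from separate cultures, so that the p-values measure the spread between these libraries, which may be technical.

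Hox genes encode homeodomain transcription factors that give cells their position along the axis from head to tail. They are switched on in the order in which they lie on the chromosome, the low paralog numbers first and furthest forward, in response to retinoic acid, Wnt and FGF signals and to the Cdx factors, and they are held silent by Polycomb proteins before that. In the neural tube the anterior genes mark segments of the hindbrain and the central and posterior genes mark levels of the spinal cord. CTCF binds between Hox genes and is known from other work to separate active from silent parts of a cluster.

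The start regions of 6 members named in the results below are shown. They run from 250 bases before to 50 bases after the start in RefSeq (GRCm38.p6, the build of mm10). Whether their letters bear on the results was not tested. Capitals mark every match, on either strand, to the letters TATAAA (bound by TBP), AGGTCA (retinoic acid receptor half-site), TGATNNAT (Pbx-Hox site) or GGNGGCAG (part of the CTCF core), where overlapping matches run together. Hoxa3 (chr6:52213018-52213317, minus strand) held none of the 4. Hoxa5 (chr6:52204538-52204837, minus strand) held AGGTCA, Hoxb1 (chr11:96365508-96365807, plus strand) held TGATNNAT, Hoxb8 (chr11:96281655-96281954, plus strand) held TATAAA at 2 places and TGATNNAT at 1, Hoxc4 (chr15:103034145-103034444, plus strand) held AGGTCA, and Hoxd13 (chr2:74667975-74668274, plus strand) held 2 overlapping matches to TATAAA, one on each strand.
Hoxa3: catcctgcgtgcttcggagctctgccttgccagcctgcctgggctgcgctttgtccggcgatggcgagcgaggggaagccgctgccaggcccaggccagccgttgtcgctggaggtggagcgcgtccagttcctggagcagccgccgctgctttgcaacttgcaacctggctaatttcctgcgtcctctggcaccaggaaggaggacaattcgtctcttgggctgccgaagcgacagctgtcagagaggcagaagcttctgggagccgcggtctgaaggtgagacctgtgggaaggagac
Hoxa5: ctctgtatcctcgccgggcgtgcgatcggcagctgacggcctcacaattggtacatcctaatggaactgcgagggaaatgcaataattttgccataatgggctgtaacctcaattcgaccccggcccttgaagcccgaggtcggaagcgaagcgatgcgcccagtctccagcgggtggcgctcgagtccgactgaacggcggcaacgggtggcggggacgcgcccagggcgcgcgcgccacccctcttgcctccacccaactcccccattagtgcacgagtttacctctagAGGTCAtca
Hoxb1: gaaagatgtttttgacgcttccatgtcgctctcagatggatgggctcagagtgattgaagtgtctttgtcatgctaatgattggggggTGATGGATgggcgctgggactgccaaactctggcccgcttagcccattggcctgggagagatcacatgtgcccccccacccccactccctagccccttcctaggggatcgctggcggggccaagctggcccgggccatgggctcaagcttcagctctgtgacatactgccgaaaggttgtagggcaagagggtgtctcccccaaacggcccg
Hoxb8: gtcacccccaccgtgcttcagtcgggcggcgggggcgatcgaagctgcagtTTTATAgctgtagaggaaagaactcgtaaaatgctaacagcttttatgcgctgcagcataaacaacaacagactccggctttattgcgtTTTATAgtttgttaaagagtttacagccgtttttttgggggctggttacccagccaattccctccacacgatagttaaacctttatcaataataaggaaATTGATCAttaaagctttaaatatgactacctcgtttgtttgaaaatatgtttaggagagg
Hoxc4: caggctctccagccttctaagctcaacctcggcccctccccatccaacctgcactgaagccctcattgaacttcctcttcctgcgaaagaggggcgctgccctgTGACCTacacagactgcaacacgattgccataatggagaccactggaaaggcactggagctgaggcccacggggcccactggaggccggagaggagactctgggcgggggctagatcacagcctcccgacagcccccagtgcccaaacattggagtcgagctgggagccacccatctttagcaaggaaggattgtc
Hoxd13: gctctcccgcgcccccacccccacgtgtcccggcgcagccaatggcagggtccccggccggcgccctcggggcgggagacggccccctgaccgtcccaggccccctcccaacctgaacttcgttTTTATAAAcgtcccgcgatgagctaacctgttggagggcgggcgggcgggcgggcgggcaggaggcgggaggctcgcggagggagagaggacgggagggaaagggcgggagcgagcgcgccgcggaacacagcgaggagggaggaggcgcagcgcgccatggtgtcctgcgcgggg

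RefSeq gave 18 such promoters for 17 of the 34 members. Hoxb2, Hoxc8 and Hoxc9 were among the members without one, so that their start regions are not shown. Among the 18, TATAAA was in 3, AGGTCA in 7, TGATNNAT in 4 and GGNGGCAG in 1, and among 32851 promoters of all genes the shares were 13.6%, 16.3%, 8.8% and 12.6%. A match describes the letters and does not show a bound site.

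Most members were expressed at a low level. Library totals ran from 6425179 to 28730435 counts for the rescue lines and from 1907505 to 8845087 for the truncation lines. Levels are given in CPM, the counts a gene had for every 1000000 counts of the normalized library. The 2 tables were normalized separately, so that no test was made across them. Of the 34 members, 26 had enough counts to be tested in the rescue lines and 15 had in the truncation lines. Hoxc11, Hoxd3, Hoxd4, Hoxd10, Hoxd11 and Hoxd12 had under 10 counts in every library of both tables, and Hoxd3 had 0 in every truncation library. Hoxa6 and Hoxc6 were the other members left untested in the rescue lines, with at most 11 and 14 counts. In the shallower truncation lines 16 members had under 10 counts in every library, those 6 and Hoxa6, Hoxb6, Hoxb7, Hoxb8, Hoxc5, Hoxc6, Hoxc8, Hoxc9, Hoxd1 and Hoxd9, while Hoxb3, Hoxb5 and Hoxd8 reached 19, 15 and 10 counts and were not tested either. Some members passed the filter through 1 group alone, Hoxb7, Hoxc8 and Hoxc9 through NPC-ΔZF1, Hoxc12 through ESC-ΔZF1 and, in the truncation lines, Hoxc10 through ESC E14 WT, so that these had to be higher there. In GENCODE M21, 21 members share no exon base with another gene, 8 overlap an exon of an antisense gene, and Hoxb3, Hoxd3 and Hoxd4 have under 50% of their exon bases to themselves, so that part of their counts may belong to a neighbour.

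**Figure D1:**
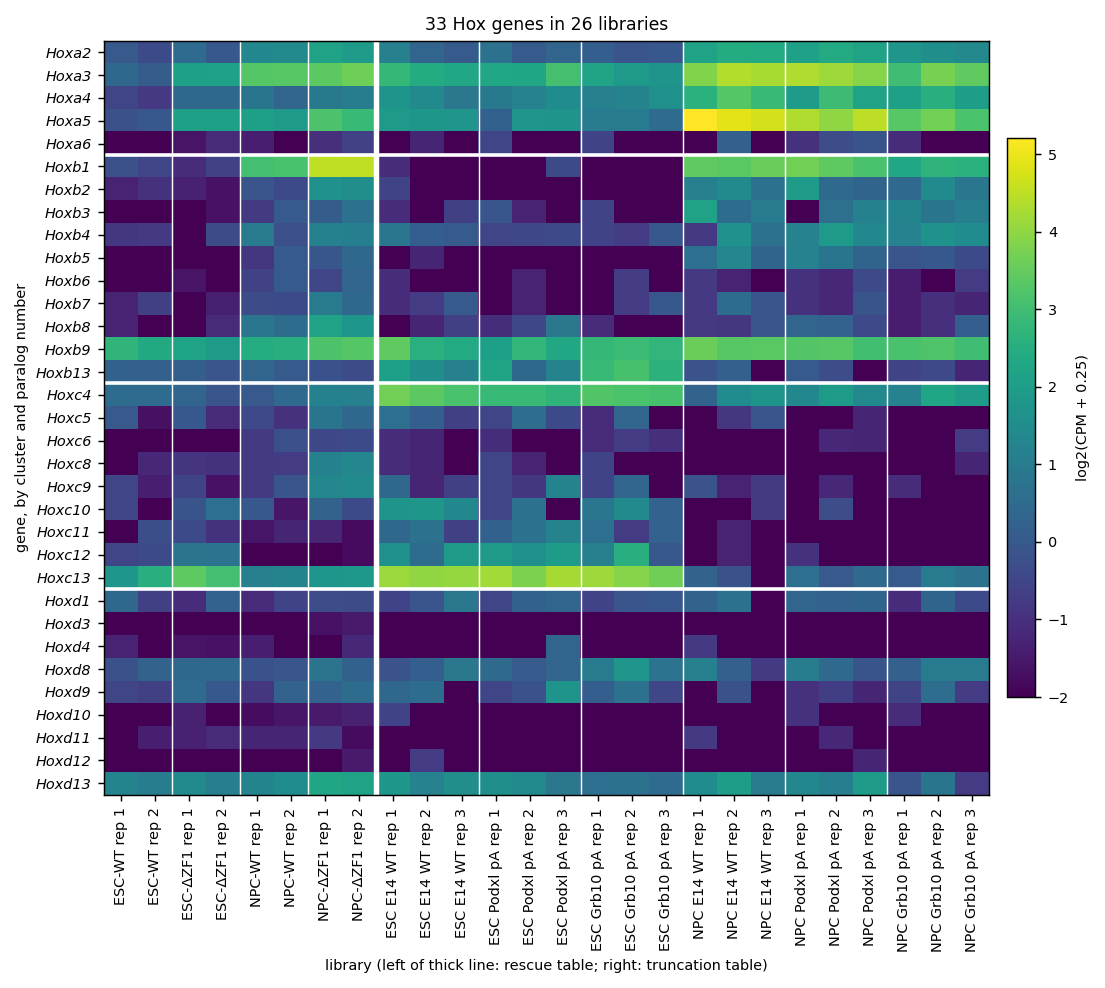
Level of 33 of the 34 Hox genes (rows, by cluster and paralog number) in each of the 26 libraries (columns, by group), as log2(CPM + 0.25) in colour. Hoxd3, Hoxd4, Hoxd10, Hoxd11 and Hoxd12 stay near the bottom of the scale in nearly all libraries, and Hoxc13 is brighter in ESCs than in NPCs.

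Levels can be compared between genes per kilobase of exon, counting only the exon bases that a gene shares with no other gene. For genes with shared exons, Hoxa3 and Hoxa4 among them, this gives higher values than the full exon length would. On this scale Hoxb9 had a mean of 2.17 CPM per kilobase and Hoxc13 of 1.78 in ESC-WT, and Hoxb1 had 3.57 and Hoxa3 2.22 in NPC-WT. In the truncation table Hoxc13 was at 6.68 and Hoxc4 at 4.06 in ESC E14 WT, and Hoxa5 at 16.4 and Hoxa4 at 5.61 in NPC E14 WT.

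Summed over their members, the Hoxa and Hoxb clusters were higher in NPCs than in ESCs. Hoxa2 to Hoxa6 held 2.66 ± 0.347 CPM in ESC-WT (mean ± SD, n = 2, as for all sums of the rescue lines), 10.3 ± 0.210 CPM in ESC-ΔZF1, then 17.1 ± 0.525 CPM in NPC-WT and 25 ± 0.238 CPM in NPC-ΔZF1. The Hoxb sum was 7.90 ± 0.933, 5.59 ± 0.0173, 19.9 ± 0.106 and 44.9 ± 0.237 CPM in the same order. Both sums were highest in NPC-ΔZF1, and the Hoxb sum alone was lower in ESC-ΔZF1 than in ESC-WT. The Hoxc sum was 7.40 ± 1.16, 13.9 ± 2.27, 5.23 ± 0.263 and 12.4 ± 0.263 CPM, with both ΔZF1 groups above both WT groups. The Hoxd sum stayed low, at 4.08 ± 0.505, 5.14 ± 0.205, 4.25 ± 0.917 and 7.75 ± 0.402 CPM. In E14 WT the sums went from 12.4 CPM in ESCs to 61.2 in NPCs for Hoxa and from 12.2 to 30.5 for Hoxb, and the other way, from 34.8 to 3.65, for Hoxc (n = 3). The sums are given as values, with no test.

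**Figure D2:**
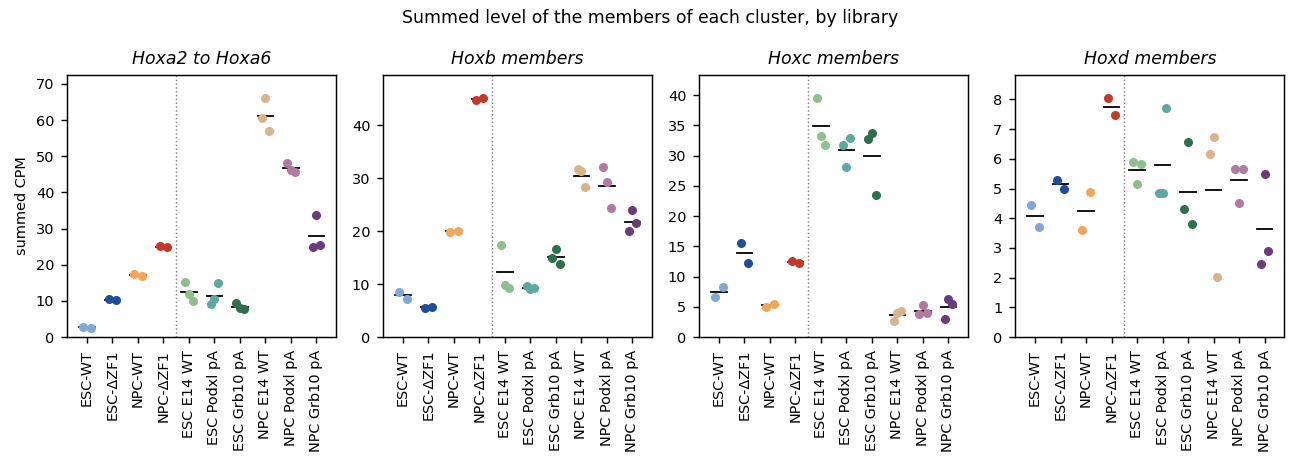
Summed CPM of the members of each cluster (panels, Hoxa2 to Hoxa6 for Hoxa) in each library (points), by group along the x axis, with the group mean as a line. The Hoxa and Hoxb sums lie higher in NPCs than in ESCs, and the mean Hoxc sum of the E14 WT, Podxl pA and Grb10 pA cells is 34.8, 30.9 and 29.98 CPM in ESCs against 3.65, 4.38 and 4.91 CPM in NPCs.

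The groups were checked against markers and against the genes that were changed by design. Summed CPM of 8 pluripotency genes were 5058 to 5120 over the ESC-WT libraries and 378 to 549.6 over the NPC-WT libraries, and all 8 fell. Of 8 neural progenitor genes Hes5 and Fabp7 were at 0 in both NPC-WT libraries, while Sox1, Nes, Zic1 and Cdh2 rose over ESC-WT. Podxl fell in Podxl pA and Grb10 in Grb10 pA in both states, in NPCs with log2 fold changes of -3.45 and -3.86. Ctcf counts, which may hold endogenous and rescue transcripts together, were higher in ΔZF1 than in WT rescue, with log2 fold changes of 0.57 in ESCs and 0.78 in NPCs, and were lower in ESC Grb10 pA (-0.64). In NPC Grb10 pA the log2 fold change of Ctcf was -0.44 (edgeR adjusted p = 5.01e-05), short of the fold needed for a call. In these bulk samples, fewer cells that express a gene and less RNA per cell cannot be told apart.

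On differentiation of the WT rescue, 5 Hoxa genes and 5 Hoxb genes rose and 2 posterior Hoxc genes fell. A gene was called at a Benjamini-Hochberg adjusted p of at most 0.05 in edgeR's quasi-likelihood test and a log2 fold change of 0.5 or more, up or down. Of the 26 members tested, 10 were called higher in NPC-WT than in ESC-WT and 2 lower, where 22.0% of all genes tested were called higher and 19.9% lower. The median log2 fold change of the members was 1.35, and that of all genes 0.011. By cluster, 5 of 5 tested Hoxa members and 5 of 10 Hoxb members were called higher, 2 of 7 Hoxc members lower, and none of 4 Hoxd members. By paralog number, 6 of 10 anterior and 4 of 8 central members were called higher, and 2 of 8 posterior members lower.

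Hoxb1, which specifies a segment of the hindbrain, measured 0.611 and 0.457 CPM in the ESC-WT libraries and 8.09 and 8.51 in the NPC-WT libraries (log2 fold change 4.02 ± 0.28, adjusted p = 3.12e-06). Hoxa3, needed for the thymus and parathyroid, measured 1.07 and 0.848 CPM in ESC-WT and 9.53 and 9.88 in NPC-WT (log2 fold change 3.39 ± 0.25, adjusted p = 4.36e-06). Hoxa5, which acts in lung and axial skeleton, measured 0.611 and 0.717 CPM in ESC-WT and 4.03 and 3.44 CPM in NPC-WT (log2 fold change 2.45 ± 0.32, adjusted p = 1.68e-04). In all 3 the libraries of the 2 states were far from overlapping. Hoxa2, which sets the identity of the second pharyngeal arch, measured 0.764 and 0.522 CPM in ESC-WT and 2.33 and 2.41 CPM in NPC-WT (log2 fold change 1.96 ± 0.39, adjusted p = 0.00222). Hoxa4, a gene of the neck vertebrae, rose as well, by a log2 fold change of 1.80 ± 0.47. Hoxb3, Hoxb5 and Hoxb6 were at 0 counts in ESC-WT and had 17, 16 and 19 counts in NPC-WT, at least 3.52-fold, 3.31-fold and 3.93-fold higher against a floor of 3 counts over the group. Hoxb8, a gene of blood cells and microglia, had 1 count over both ESC-WT libraries and 50 over both NPC-WT libraries (ratio 31.04, exact 95% interval 5.32 to 1250). Intervals and floors cover counting error only.

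The posterior Hoxc genes went the other way. Hoxc13, which acts in hair and nails, measured 3.21 and 5.54 CPM in ESC-WT and 1.95 and 2.15 CPM in NPC-WT (log2 fold change -1.19 ± 0.30, adjusted p = 0.00779). Hoxc12 had 11 counts in ESC-WT and 0 in NPC-WT, at least 5.91-fold lower. Without ESC-WT replicate 2, 5 of the 12 calls of this comparison were made.

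The ΔZF1 rescue differentiated with more calls, 17 higher and 2 lower of 26, where 20.4% of all genes were called higher and 16.9% lower. Depth differed between the rescues. The NPC-ΔZF1 libraries had 28730435 and 27077411 counts and the NPC-WT libraries 23386727 and 12101361, while ESC-WT replicate 1 had 6425179. The NPC-WT libraries also differed more from each other, with a chi-square of 63.1 per degree of freedom against 2.92 to 6.37 in the other rescue groups. The median over the members was 1.45. The 4 members Hoxb7, Hoxc8, Hoxc9 and Hoxc12 passed the filter through 1 of these 2 groups, and among the other 22 members 15 were called. Of the Hoxb genes, 9 of 10 were called higher, all but Hoxb13. Hoxb5 was at 0 in ESC-ΔZF1 and at least 8.36-fold higher in NPC-ΔZF1, and Hoxb2, Hoxb3, Hoxb6, Hoxb7 and Hoxb8 went from 1 to 3 counts over the ESC-ΔZF1 group to 155, 61, 41, 77 and 206 counts. Hoxb8 had a ratio 35.1, exact 95% interval 11.9 to 172. Hoxc13 fell from 10.4 and 8.10 CPM to 3.17 and 3.31 CPM (log2 fold change -1.51 ± 0.24, adjusted p = 6.76e-04), and Hoxc12 from 41 counts over the group to 1. Hoxc4, a gene of the neck region, rose in this line from 1.03 and 0.675 CPM to 2.01 and 1.95 CPM (log2 fold change 1.22 ± 0.35, adjusted p = 0.0181).

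In parental E14 WT cells, which have no degron and no rescue, 7 of 15 tested members were called higher in NPCs and 5 lower, where 16.5% of all genes were called higher and 16.3% lower. Hoxa5 measured 3.49, 3.25 and 3.11 CPM in the 3 ESC libraries and 36.6, 29.8 and 25.95 CPM in the 3 NPC libraries (log2 fold change 3.21 ± 0.24, adjusted p = 1.19e-11). Hoxa2, Hoxa3 and Hoxa4 rose with log2 fold changes of 1.88, 1.69 and 1.67. Hoxb1 had 1 count over the 3 ESC libraries and 133 over the 3 NPC libraries (ratio 137, exact 95% interval 24.2 to 5460), and Hoxb2, another hindbrain gene, 2 and 26 counts (ratio 13.4, exact 95% interval 3.36 to 117). All 4 tested Hoxc members fell. Hoxc13 went from 17.2, 15.8 and 16.3 CPM to 0.971, 0.611 and 0 CPM (log2 fold change -4.82 ± 0.36, adjusted p = 1.44e-11), and Hoxc4 from 12.4, 10.3 and 8.54 CPM to 0.971, 2.60 and 3.03 CPM (log2 fold change -2.20 ± 0.30, adjusted p = 9.00e-07), with no overlap in either. Hoxc10 and Hoxc12 went from 39 and 29 counts over the group to 1 count each, and Hoxc10 had passed the filter through ESC E14 WT alone. Hoxb13, a gene of prostate and tail, fell as well, from 3.92, 2.74 and 1.94 CPM to 0.647, 0.917 and 0 CPM (log2 fold change -2.20 ± 0.62, adjusted p = 0.00497).

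The same genes were counted in the truncation lines. In Podxl pA cells 9 members were called higher in NPCs and 4 lower (17.1% and 14.7% of all genes), and in Grb10 pA cells 7 higher and 5 lower (17.2% and 17.4% of all genes). Hoxa5 rose by 3.02 in Podxl pA and by 2.70 in Grb10 pA on the log2 scale, and Hoxc13 fell, with log2 fold changes of -3.92 and -3.61. Hoxb1 was at 0 counts in ESC Grb10 pA and at least 21.1-fold higher in the NPCs. Hoxc12 and Hoxc10 were at 0 in NPC Grb10 pA, at least 14.9-fold and 9.58-fold lower than in the ESCs. Hoxb9, a gene of the ribs, and Hoxb4 were called higher in Podxl pA, with log2 fold changes of 0.76 and 2.40, and of these Hoxb4 was called in Grb10 pA, at 2.19. These differentiation comparisons share no library with each other, and their differences between lines were tested only as the interactions given below. Markers of extraembryonic endoderm moved with all of them. Of 8 such genes 6 were called higher in NPC-WT than in ESC-WT (summed CPM 18.4 to 38.8 in ESCs and 102 to 118 in NPCs) and 8 in the ΔZF1 rescue (17.6 to 27.2 and 775 to 824). All 6 tested were called higher in each of the other lines, with sums of 12.04 to 13.9 and 259.9 to 302 CPM in E14 WT, 11.8 to 23.2 and 521 to 527 CPM in Podxl pA, and 8.97 to 14.3 and 208 to 279.9 CPM in Grb10 pA. Their part in the Hox values was not tested.

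In ESCs, Hoxa3 and Hoxa5 were higher with ΔZF1, and no other member was called. Of 26 members tested 2 were called higher and none lower, where 1.29% of all genes were called higher and 2.33% lower. By DESeq2 3 members were called, and 7 members had an unadjusted p under 0.05. Hoxa5 measured 0.611 and 0.717 CPM in ESC-WT and 4.04 and 3.98 CPM in ESC-ΔZF1 (log2 fold change 2.54 ± 0.32, adjusted p = 0.00755). Hoxa3 measured 1.07 and 0.848 CPM in ESC-WT and 4.04 and 4.12 CPM in ESC-ΔZF1 (log2 fold change 2.14 ± 0.27, adjusted p = 0.00786). In both genes every ESC-ΔZF1 library lay above every ESC-WT library.

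The members next in order were not called. Hoxc13 measured 3.21 and 5.54 CPM in ESC-WT and 10.4 and 8.10 CPM in ESC-ΔZF1 (log2 fold change 0.99 ± 0.26, adjusted p = 0.0636), without overlap of the libraries. Hoxa4, between the 2 called genes on the chromosome, had a log2 fold change of 1.55 ± 0.49 with an adjusted p of 0.120. Among members with no overlap between the groups, 10 of 26 were higher in ESC-ΔZF1, where 27.5% of all genes were, and 6 were lower, 5 of them Hoxb genes, where 29.9% of all genes were. By cluster the median log2 fold change was 1.55 over 5 Hoxa members, 0.99 over 7 Hoxc members, 0.28 over 4 Hoxd members and -0.58 over the 6 Hoxb members above the floor of 3 counts in either group. Hoxb lies on chromosome 11, whose genes were lower as a whole in the ΔZF1 clone. With the median of that chromosome taken out, the 6 Hoxb values ran from -1.61 to 0.27, with -0.20 for Hoxb1, -0.02 for Hoxb9 and 0.23 for Hoxb13. Over all 22 members above that floor the median was 0.46, and over all genes -0.0057. Hoxc12 had passed the filter through ESC-ΔZF1 alone, so that it had to be higher there, and the counts and medians above include it. Both calls were among the other 25 members.

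Both calls rest on all 4 libraries. Leaving out any of them left no member called, with adjusted p up to 0.187 for Hoxa3 and 0.155 for Hoxa5, while the log2 fold changes ran from 1.94 to 2.27 for Hoxa3 and from 2.49 to 2.72 for Hoxa5 over all alternatives. With only the 4 ESC libraries in the fit 5 members were called, and 4 without the filter on low counts. Of the marker lists, 4 genes were called, Sox7 of the extraembryonic endoderm list, Eomes of the mesoderm list and Sox1 of the neural progenitor list higher, and Dppa3 of the pluripotency list lower. The mesoderm sum was 16.2 to 17.6 CPM in ESC-WT and 26.7 to 28.8 CPM in ESC-ΔZF1, and the part of these markers was not tested.

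In NPCs, 9 of the 26 members tested were called higher with ΔZF1 and none lower, where 7.19% of all genes were called higher and 10.5% lower. The log2 fold change was above 0 for 25 of 26 (Hoxb13 was the exception, at -0.63, and Hoxc12 had 1 count over the 4 NPC libraries). The median was 0.92 over the 25 members above the floor of 3 counts and -0.0026 over all genes. All libraries of NPC-ΔZF1 lay above all of NPC-WT for 21 of 26 members, where this held for 30.1% of all genes. The calls fell on 1 of 5 Hoxa, 4 of 10 Hoxb, 3 of 7 Hoxc and 1 of 4 Hoxd members, and on 3 of 10 anterior, 3 of 8 central and 3 of 8 posterior members. Hoxb7, Hoxc8 and Hoxc9 had passed the filter through NPC-ΔZF1 alone, so that they had to be higher there. All counts above, by cluster and paralog number too, include them. Among the other 23 members 7 were called, with a median of 0.88.

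Among the anterior genes, Hoxb1 measured 8.09 and 8.51 CPM in NPC-WT and 22.5 and 22.6 CPM in NPC-ΔZF1 (log2 fold change 1.44 ± 0.16, adjusted p = 4.37e-04). Hoxb2 measured 0.678 and 0.516 CPM in NPC-WT and 2.85 and 2.72 CPM in NPC-ΔZF1 (log2 fold change 2.16 ± 0.34, adjusted p = 0.00248). These 2 hindbrain genes, neighbours on the chromosome, kept their calls under all 11 alternatives, with log2 fold changes of 1.40 to 2.03 and 2.01 to 2.73. Hoxc4 measured 0.763 and 1.12 CPM in NPC-WT and 2.01 and 1.95 CPM in NPC-ΔZF1 (log2 fold change 1.13 ± 0.34, adjusted p = 0.0410), and this call was lost under 6 of 11. Hoxa3 was not called, at 9.53 and 9.88 CPM in NPC-WT and 10.3 and 11.9 CPM in NPC-ΔZF1 (log2 fold change 0.19 ± 0.16, adjusted p = 0.421), nor was Hoxa2, at 2.33 and 2.41 CPM in NPC-WT and 4.16 and 3.64 CPM in NPC-ΔZF1 (log2 fold change 0.72 ± 0.26, adjusted p = 0.0755).

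Among the central genes, Hoxa5 measured 4.03 and 3.44 CPM in NPC-WT and 8.88 and 7.10 CPM in NPC-ΔZF1 (log2 fold change 1.08 ± 0.20, adjusted p = 0.00537). Hoxb8 measured 1.53 and 1.20 CPM in NPC-WT and 4.19 and 3.20 CPM in NPC-ΔZF1 (log2 fold change 1.40 ± 0.39, adjusted p = 0.0322). Hoxc8, which acts in motor neurons at the level of the arm, measured 0.339 and 0.344 CPM in NPC-WT and 1.97 and 2.28 CPM in NPC-ΔZF1 (log2 fold change 2.62 ± 0.44, adjusted p = 0.00341). No NPC-WT library reached an NPC-ΔZF1 library in any of the 3. Hoxc8 had passed the filter through NPC-ΔZF1 alone, so that it had to be higher there. The call of Hoxb8 was lost under 2 of 11 alternatives and that of Hoxa5 under 1 of 11. In counts, Hoxc8 had 8 and 4 in NPC-WT and 56 and 62 in NPC-ΔZF1, so that its fold rests on few reads.

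Among the posterior genes, Hoxb9 measured 5.30 and 5.59 CPM in NPC-WT and 8.92 and 9.60 CPM in NPC-ΔZF1 (log2 fold change 0.77 ± 0.19, adjusted p = 0.0171). Hoxc9, which acts in motor neurons of the trunk, measured 0.339 and 0.688 CPM in NPC-WT and 2.26 and 2.46 CPM in NPC-ΔZF1 (log2 fold change 2.31 ± 0.53, adjusted p = 0.0133), from 8 and 8 counts in NPC-WT and 64 and 67 in NPC-ΔZF1. Hoxd13, a gene of the digits, measured 2.12 and 2.58 CPM in NPC-WT and 4.58 and 4.19 CPM in NPC-ΔZF1 (log2 fold change 0.93 ± 0.24, adjusted p = 0.0220). The groups of these 3 genes did not overlap, but Hoxc9 had passed the filter through NPC-ΔZF1 alone, so that it had to be higher there. The call of Hoxd13 was lost under 4 of 11 alternatives, DESeq2 among them, that of Hoxb9 under 3 of 11, and that of Hoxc9 under 2 of 11. Hoxc13 was not called, at 1.95 and 2.15 CPM in NPC-WT and 3.17 and 3.31 CPM in NPC-ΔZF1 (log2 fold change 0.67 ± 0.28, adjusted p = 0.114).

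**Figure D3:**
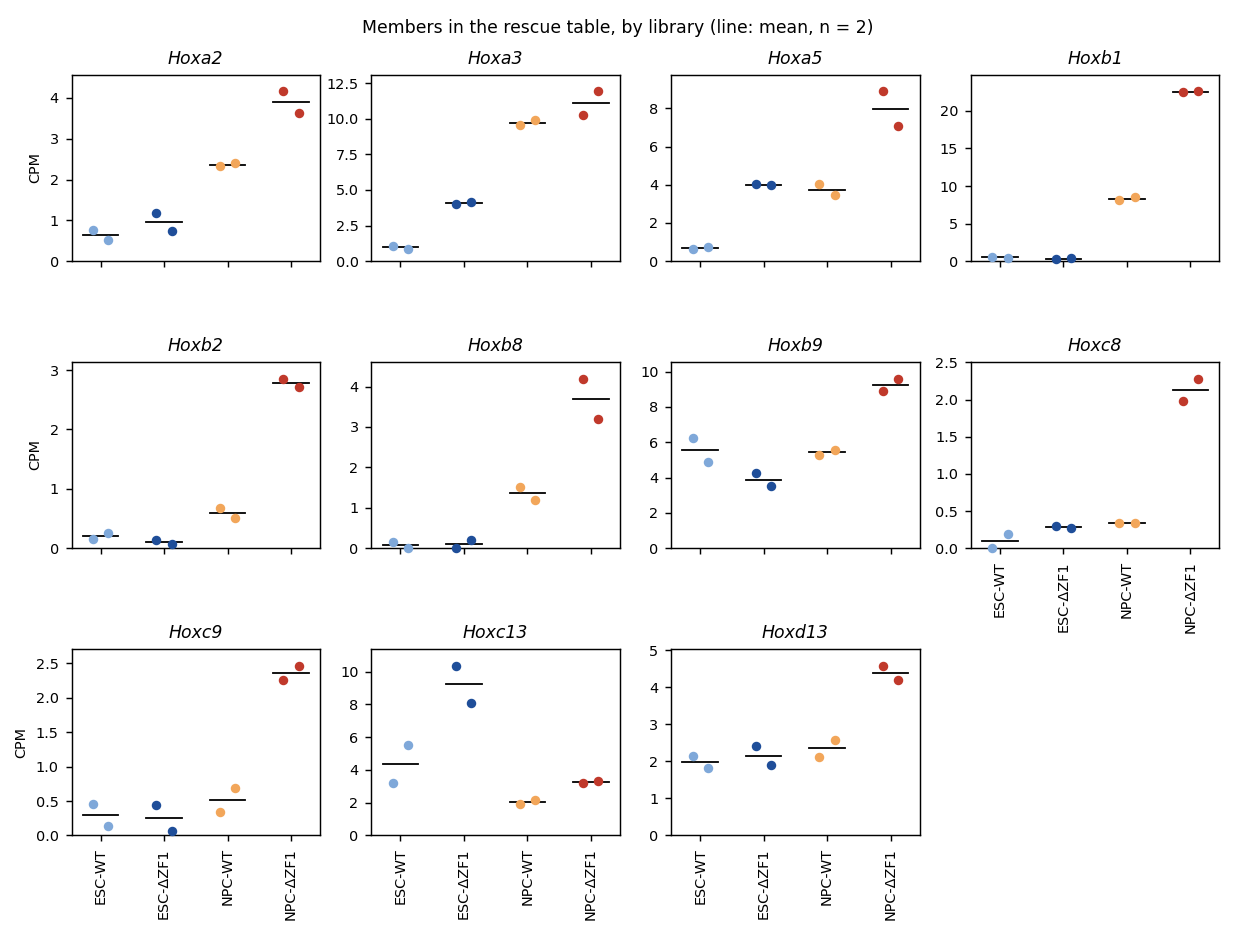
CPM of 11 members (panels, each with its own linear axis from 0) in each library of the rescue lines (points), with the mean of the 2 libraries of a group as a line. Hoxb1, Hoxb2, Hoxb8, Hoxc8 and Hoxc9 stand highest in both NPC-ΔZF1 libraries, and Hoxa3 and Hoxa5 are already raised in ESC-ΔZF1. Hoxc8 and Hoxc9 had passed the filter through NPC-ΔZF1 alone.

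The calls in NPCs rested on both NPC-ΔZF1 libraries. Without NPC-ΔZF1 replicate 1, 3 members were called, and without replicate 2, 4, whereas 12 and 10 were called without replicate 1 or 2 of NPC-WT. Markers of other cell types moved with this comparison. All 8 genes of an extraembryonic endoderm list were called higher, and their summed CPM were 102 to 118 in NPC-WT and 775 to 824 in NPC-ΔZF1, with none of the 8 at 0 in either. Of 8 mesoderm genes 6 were tested and 2 were called higher, with sums of 9.80 to 10.9 CPM in NPC-WT and 19.8 to 19.9 CPM in NPC-ΔZF1. Mesp1 and Msgn1 were at 0 in NPC-WT. Of 6 tested neural progenitor genes Sox1, Zic1 and Cdh2 were called higher and Nes lower, with sums of 128 to 158 CPM in NPC-WT and 143 to 144 CPM in NPC-ΔZF1. Of 8 pluripotency genes Sox2 was called higher and Dppa3 lower, with sums of 378 to 549.6 CPM in NPC-WT and 481 to 493 CPM in NPC-ΔZF1. The part of these markers in the Hox values was not tested.

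**Figure D4:**
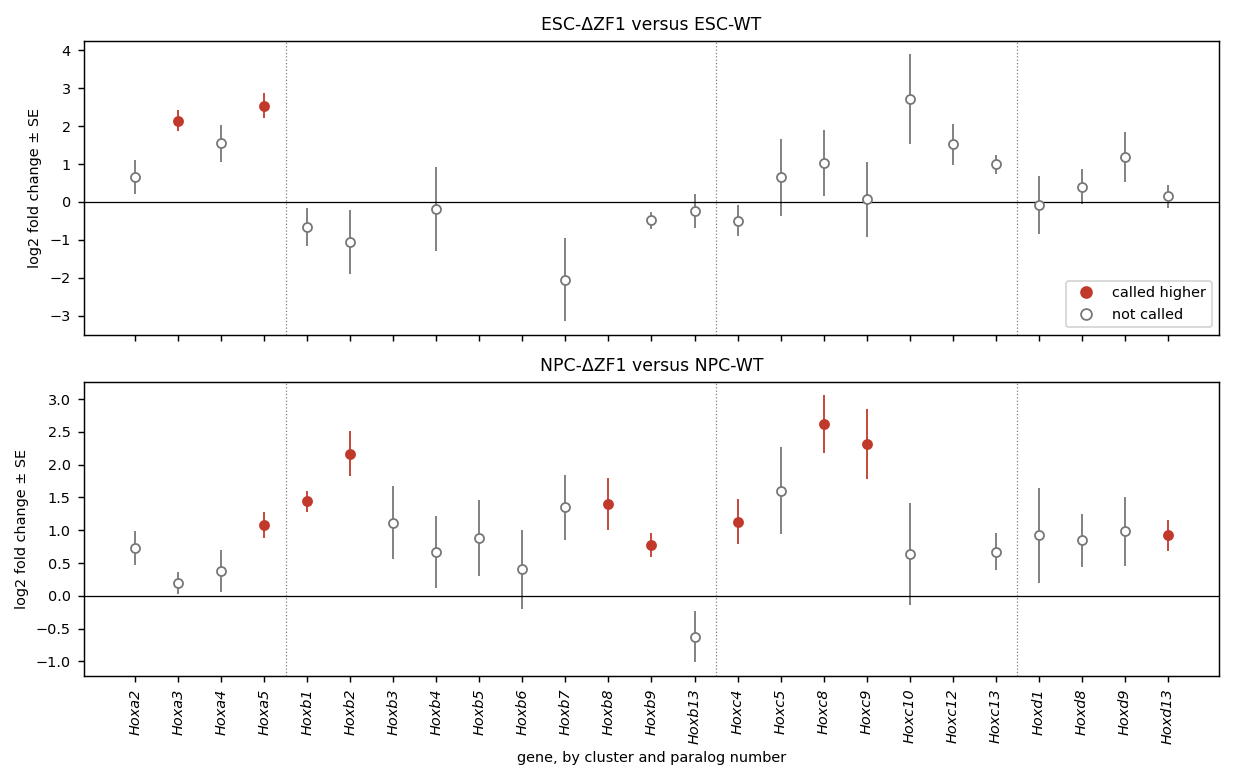
Log2 fold change of ΔZF1 over WT rescue (points, bars the standard error) for 25 of the tested members in cluster order, in ESCs and in NPCs. Red points are called higher and open points are not called. Hoxb7, Hoxc8 and Hoxc9 had passed the filter through NPC-ΔZF1 alone, and Hoxc12 through ESC-ΔZF1 alone. In ESCs 2 genes are red and in NPCs 9, and a gene has no point where both groups had 3 counts or fewer in total (Hoxb3, Hoxb5, Hoxb6 and Hoxb8 in ESCs, Hoxc12 in NPCs).

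Chromosome 11, which holds the Hoxb cluster, was lower as a whole in the ΔZF1 clone. The median log2 fold change of its 1322 tested genes with ΔZF1 was -0.46 in ESCs and -0.57 in NPCs, whereas those of chromosomes 2, 6 and 15 lay near 0. Of the genes next to the Hoxb cluster, Snf8, an ESCRT subunit, fell by 0.74 in ESCs and 0.88 in NPCs on the log2 scale, and Ube2z, a ubiquitin-conjugating enzyme, by 0.54 and 0.71. With the median of chromosome 11 taken out of each library for the genes on it, 10 members were called in NPCs, Hoxb7 in addition, and the log2 fold change of Hoxb1 was 2.03 and that of Hoxb9 1.35.

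The effect of ΔZF1 differed between ESCs and NPCs for 1 member by the test of the difference itself. For Hoxa3 the effect in NPCs was below that in ESCs by 1.95 ± 0.32 on the log2 scale (adjusted p = 0.0151), with 1.07 and 0.848 CPM in ESC-WT against 4.04 and 4.12 CPM in ESC-ΔZF1, but 9.53 and 9.88 CPM in NPC-WT against 10.3 and 11.9 CPM in NPC-ΔZF1. Of all genes, 2.70% were called in this test. Hoxa5 came to -1.46 ± 0.39 (adjusted p = 0.0906), and was called higher in both states. Hoxb1 and Hoxb9 had larger effects in NPCs, by 2.11 ± 0.53 and 1.26 ± 0.29, and missed the threshold (adjusted p = 0.0723 and 0.0522). With chromosome 11 centred Hoxb9 was called, with an adjusted p of 0.0357. The call of Hoxa3 was lost in 6 of 15 alternatives, each of which left out a library, and 0 to 6 members were called when 1 library was left out.

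Genes known to act on or with Hox genes were taken as a list of 21 regulators and partners, with log2 fold changes in parentheses. In ESC-ΔZF1 4 of 21 were called higher and none lower, where 1.29% of all genes were called higher and 2.33% lower. Among them were Cdx1 (1.28), a homeobox activator of Hox genes, and Meis2 (1.42) and Pknox2 (1.14), of the family of homeodomain cofactors that bind DNA with Hox proteins. In NPC-ΔZF1 8 of 21 were called higher and none lower, where 7.19% of all genes were called higher and 10.5% lower. Among these were Cdx1 (1.46) and Cdx4 (1.80), the cofactors Meis2 (1.09) and Pknox2 (0.51), Cyp26a1 (1.18) and Dhrs3 (1.01), which break down retinoic acid or lower its supply and are induced by it, and Gbx2 (1.36), a factor of the hindbrain. The median of the list was 0.29 in ESCs and 0.19 in NPCs. On differentiation of the WT rescue 13 of the 21 rose, Cdx2, Meis1, Rarb and Egr2 among them, and 4 fell, Cdx1, Rara, Rarg and Gbx2. There 22.0% of all genes were called higher and 19.9% lower.

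The posterior Hoxa genes next to Hoxa5 and Hoxa6 were called higher in 4 of 5 cases in ESC-ΔZF1 and in 3 of 5 in NPC-ΔZF1. Of all genes 1.29% and 7.19% were called higher there. Their summed CPM were 3.33 to 4.13 in ESC-WT and 29.6 to 30.1 in ESC-ΔZF1, and 3.78 to 4.24 CPM in NPC-WT and 13.8 to 14.4 CPM in NPC-ΔZF1. Of 46 other genes inside the clusters 9 were tested, none was called in ESC-ΔZF1, and 5730596B20Rik, which overlaps an exon of Hoxa3 on the other strand, was called higher in NPC-ΔZF1 (2.01). Hoxaas2, Hoxaas3 and Gm29430 overlap exons of Hoxa3 on the other strand as well. In ESC-ΔZF1 the log2 fold change was 2.29 ± 0.79 for Hoxaas2 and 1.66 ± 0.78 for Hoxaas3 (edgeR adjusted p = 0.149 and 0.306). 5730596B20Rik was at 0 in ESC-WT but not in ESC-ΔZF1, and Gm29430 was at 0 in both. Reads from these genes and from Hoxa3 cannot be told apart without strand where they overlap. Of the exon bases of Hoxa3, 72.9% are its own, and the part of these genes in its counts was not tested. Outside the clusters 9 of 11 flanking protein-coding genes were tested. In NPC-ΔZF1 Evx1, a homeobox gene beside Hoxa13, was called higher (2.33). Snf8 (-0.88), Ube2z (-0.71) and Calcoco2 (-0.58), an autophagy receptor, were called lower. Of all genes 7.19% were called higher and 10.5% lower. The 3 lower genes lie on chromosome 11, whose median in this comparison was -0.57.

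With Podxl RNA cut short, no member passed the threshold. In ESCs 0 of 15 tested members were called, 2 had an unadjusted p under 0.05, and DESeq2 called 0, where 0.339% of all genes were called. In NPCs 0 of 15 were called, 2 had an unadjusted p under 0.05, and DESeq2 called 0, where 0.550% of all genes were called. The member closest to a call in NPCs was Hoxa5, at 36.6, 29.8 and 25.95 CPM in NPC E14 WT and 20.04, 15.8 and 22.01 CPM in NPC Podxl pA (log2 fold change -0.67 ± 0.17, adjusted p = 0.0840), where every Podxl pA library was below every WT library. It was called without the filter on low counts (log2 fold change -0.64, adjusted p = 0.0487), and 1 member was called with only the 6 NPC libraries of these groups in the fit. The median log2 fold change was -0.30 in ESCs and -0.13 in NPCs over the 13 members above the floor in each. The extraembryonic endoderm sum was 259.9 to 302 CPM in NPC E14 WT and 521 to 527 CPM in NPC Podxl pA, with 2 of 6 tested genes higher, and its part in the Hox values was not tested.

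Truncation of Grb10 RNA went with lower levels of 6 members in NPCs, 4 of them Hoxa genes. Of 15 members 6 were called lower and none higher, where 8.64% of all genes were called lower and 7.90% higher. DESeq2 called 4. The libraries of NPC Grb10 pA lay below all of NPC E14 WT for 7 of 15, against 21.7% of all genes. The 6 were 4 of 5 Hoxa members, 1 of 5 Hoxb and the 1 Hoxd member tested, and none of 4 Hoxc members. The median log2 fold change was -0.71 over the 13 members above the floor, and 0.0081 over all genes. The lowest median of an autosome other than chromosome 11 was -0.48 in NPC Grb10 pA and -0.49 in ESC Grb10 pA. With Podxl pA it was -0.024 and -0.023. In NPC Grb10 pA the chromosomes that hold the clusters had medians of 0.0090 (chromosome 2), 0.032 (6), 0.031 (11) and 0.064 (15). The part of the lower autosome in the Hox values was not tested.

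Hoxa5 measured 36.6, 29.8 and 25.95 CPM in NPC E14 WT and 9.79, 12.5 and 8.72 CPM in NPC Grb10 pA (log2 fold change -1.60 ± 0.18, adjusted p = 3.48e-07). Hoxa3 measured 13.9, 20.5 and 18.9 CPM and 7.65, 12.96 and 10.6 CPM (log2 fold change -0.86 ± 0.20, adjusted p = 0.00233), and Hoxb1 10.7, 10.1 and 11.5 CPM and 4.73, 6.23 and 5.81 CPM (log2 fold change -0.96 ± 0.24, adjusted p = 0.00436). No Grb10 pA library reached a WT library in any of these 3, and their calls were made under all 12 alternatives. Hoxa4 measured 5.83, 9.63 and 7.08 CPM and 4.05, 5.48 and 3.76 CPM (log2 fold change -0.86 ± 0.27, adjusted p = 0.0178), Hoxa2 4.21, 5.20 and 5.06 CPM and 3.15, 2.74 and 2.39 CPM (log2 fold change -0.79 ± 0.28, adjusted p = 0.0322), and Hoxd13 2.59, 3.82 and 1.69 CPM and 0.675, 1.495 and 0.342 CPM (log2 fold change -1.93 ± 0.45, adjusted p = 0.00226). The call of Hoxa2 was lost under 6 of 12 alternatives and that of Hoxa4 under 4 of 12, DESeq2 among them for both, and that of Hoxd13 under 1 of 10. Without replicate 2 of NPC E14 WT, 3 members were called.

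**Figure D5:**
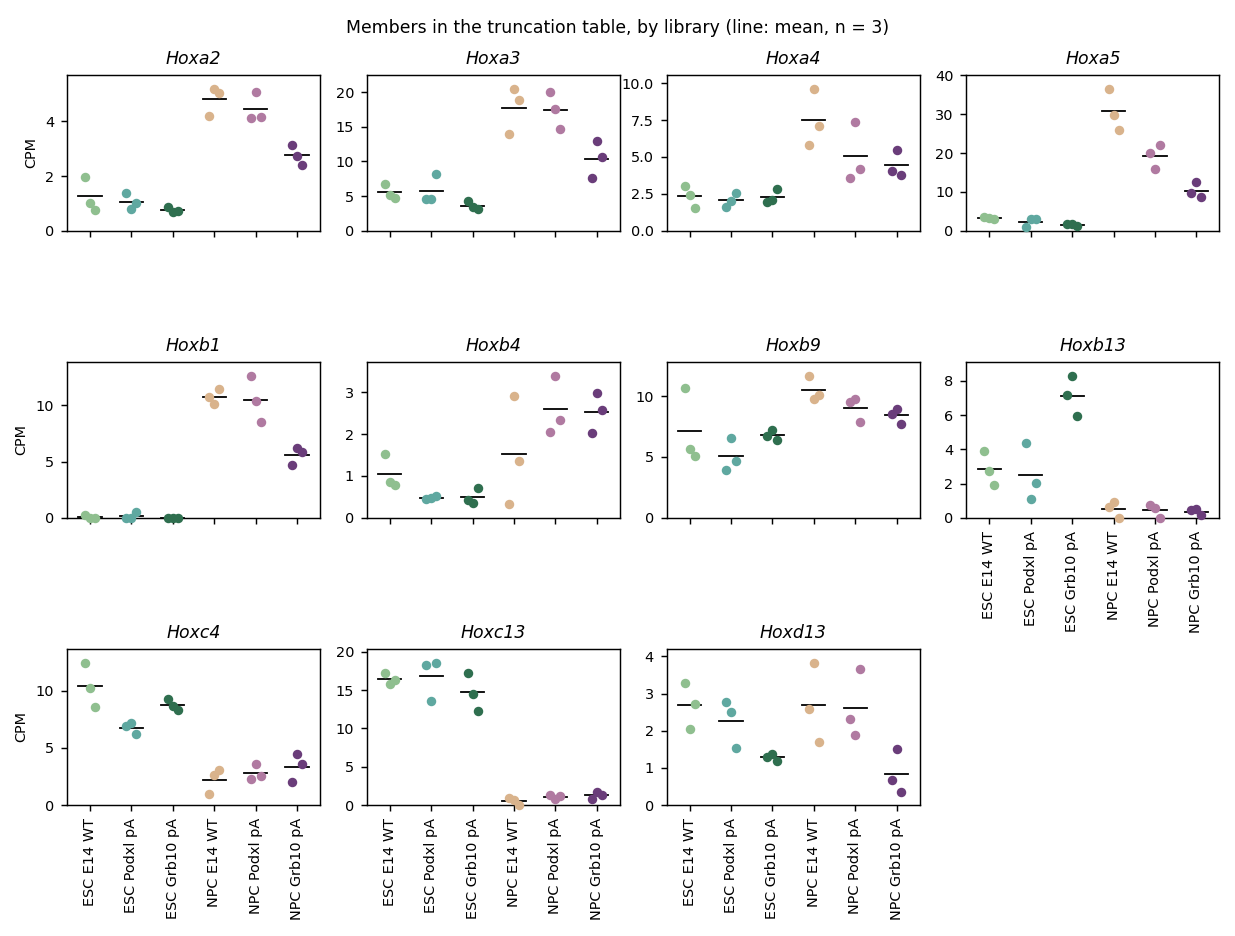
CPM of 11 members (panels, each with its own linear axis from 0) in each library of the truncation experiment (points), with the mean of the 3 libraries of a group as a line. In NPCs the 3 Grb10 pA libraries of Hoxa5, Hoxa3 and Hoxb1 lie below the 3 E14 WT libraries, and Hoxc4 and Hoxc13 drop from ESCs to NPCs in all 3 lines.

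Of the 19 tested regulators and partners, 7 were lower in NPC Grb10 pA than in NPC E14 WT, namely Cdx2 (-2.75) and Cdx4 (-1.71), Gbx2 (-1.17), Cyp26a1 (-0.78), Meis1 (-0.67), Meis2 (-0.55) and the retinoic acid receptor gene Rarg (-0.87), and Pknox2 was higher (0.70). Over all genes the shares called were 8.64% lower and 7.90% higher. All 3 tested posterior Hoxa genes were lower too. Markers moved with this comparison. The neural progenitor sum was 144 to 158 CPM in NPC E14 WT and 59.5 to 72.03 CPM in NPC Grb10 pA, where Hes5 and Fabp7 were at 0 and 4 of 5 tested genes were lower. The pluripotency sum was 710.1 to 829.8 CPM in WT and 902 to 973 CPM in Grb10 pA, with 4 of 8 genes higher and 1 lower. The mesoderm sum was 34.96 to 39.4 CPM in WT and 63.9 to 77.02 CPM in Grb10 pA, and of 2 tested genes Eomes was called higher. Of 6 tested extraembryonic endoderm genes Gata6 and Sox7 were called lower. Ctcf had 211 to 218 CPM in WT and 155 to 161 CPM in Grb10 pA. The part of these genes in the Hox values was not tested.

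In ESCs 1 member, Hoxb13, was called in Grb10 pA, at 3.92, 2.74 and 1.94 CPM in ESC E14 WT and 7.14, 8.28 and 5.92 CPM in ESC Grb10 pA (log2 fold change 1.23 ± 0.40, adjusted p = 0.0342), where 4.51% of all genes were called higher and 4.58% lower. With a mean of at least 10 counts per library as the filter Hoxb13 was not tested. The call was lost by DESeq2 and without replicate 2 or 3 of E14 WT or replicate 1 or 2 of Grb10 pA. Hoxa5 was at 3.49, 3.25 and 3.11 CPM in ESC E14 WT and 1.73, 1.73 and 1.18 CPM in ESC Grb10 pA (log2 fold change -1.09 ± 0.41, adjusted p = 0.0743). The difference between the effects in NPCs and in ESCs was not called for any of 15 members with either truncation, and 1 member (Podxl pA) and 0 (Grb10 pA) had an unadjusted p under 0.05. By DESeq2 it was called for 0 of them as well, where edgeR called 0.0980% of all genes for Podxl pA and 5.90% for Grb10 pA. For Hoxa5 the difference was -0.50 ± 0.49 with Grb10 pA, so that the fall of Hoxa5 in NPCs is not shown to be particular to NPCs.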

How the data were processed

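RNA-seq counts of 26 libraries in 10 groups were analysed, 8 from the CTCF rescue lines and 18 from the truncation lines, grouped by their labels. The authors aligned reads to mm10 with STAR and counted them on genes with featureCounts, and they deposited raw counts, as whole numbers. The annotation used in counting is not given in the sources used here. Positions are from GENCODE M21 on GRCm38. The truncation table holds 3 count columns that match no sample, which were not used.

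Each table was fitted as a whole with edgeR 4.0.16 in R 4.3.3 (TMM, edgeR's filter on low counts, 1 mean per group), which left 16641 and 13268 genes, and compared with the quasi-likelihood F test and Benjamini-Hochberg adjustment over all of them. Cutoffs were an adjusted p of 0.05 and a log2 fold change of 0.5 in either direction. The standard error is the size of the log2 fold change divided by the square root of F. The scripts were tested on simulated data. Tables and figures were made with Python 3.11.15, pandas 2.3.3 and matplotlib 3.10.9. Alternatives were DESeq2 1.42.0, RLE normalization, no filter, a mean of at least 10 counts per library, only the groups compared, a replicate block, chromosome 11 centred, and each library left out.

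The members and lists were chosen with earlier results of these data known. Values in every library are given for members called in at least 1 comparison of a table and with a highest group mean of at least 10 counts, the 12 with the highest mean if there were more, and others by counts and ranges. Hoxc4 in the rescue lines, Hoxb2 and Hoxb13 are also given, as are members of a list that were called in the ΔZF1 comparisons. Some genes that enter the counts are not reported here by name, and the Hoxa sums are over Hoxa2 to Hoxa6.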

Additional observations from a re-analysis of the deposited data

Results flagged for a closer look

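Hoxa3 stood out because the effect of ΔZF1 in NPCs minus that in ESCs differed from 0 in the test of the difference (-1.95 ± 0.32 on the log2 scale, edgeR adjusted p = 0.0151). The log2 fold change was 2.14 in ESCs and 0.19 in NPCs.

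Hoxc4 moved in opposite directions on differentiation in different lines, with every NPC library on 1 side of every ESC library where it was called. The log2 fold change was 1.22 in the ΔZF1 rescue (adjusted p = 0.0181), -0.40 in the WT rescue (adjusted p = 0.443), -2.20 in E14 WT, -1.28 in Podxl pA and -1.48 in Grb10 pA. The difference between the rescue lines and the other lines was not tested, as the tables were normalized separately. Within the rescue lines Hoxc4 had a ΔZF1 effect of -0.49 in ESCs and 1.13 in NPCs, and the difference of 1.62 was not called (adjusted p = 0.157).

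Hoxb9 likewise lay lower in every ESC-ΔZF1 library than in every ESC-WT library (-0.49) and higher in every NPC-ΔZF1 library than in every NPC-WT library (0.77). With the median of chromosome 11 taken out, the fold in ESCs was near 0, at -0.02 (edgeR adjusted p = 0.984), and that in NPCs was 1.35. Without that step the difference of 1.26 between the effects was not called (edgeR adjusted p = 0.0522). With it the difference was 1.37 and was called (edgeR adjusted p = 0.0357).

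No group has 4 or more libraries, so that no library was tested as an outlier.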

How the results depend on the processing

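Counts of called members kept within 1.5 times of those reported except as follows. For ESC-ΔZF1 versus ESC-WT (2 called) the count was 4 without the filter and 5 with only the groups compared, and 0 to 0 with a library left out. For the ΔZF1 effect in NPCs minus ESCs (1) it was 2 without the filter, 2 with chromosome 11 centred, and 0 to 6 with a library left out. For ESC Grb10 pA (1) it was 0 by DESeq2, 0 at a mean of at least 10 counts, and 0 to 1 with a library left out. For NPC Podxl pA (0) it was 1 without the filter and 1 with only the groups compared. For Grb10 pA differentiation (12) it was 7 at a mean of at least 10 counts, where fewer members were tested. The causes were not tested otherwise. With a library left out, NPC-ΔZF1 versus NPC-WT gave 3 to 12 (9 reported), WT rescue differentiation 5 to 13 (12), ΔZF1 differentiation 16 to 18 (19), E14 12 to 13 (12), Podxl pA 10 to 14 (13), Grb10 pA 11 to 13 (12) and NPC Grb10 pA 3 to 6 (6). Over the 87 pairs of a member and a comparison that were called, 513 values under the other settings kept their call and 11 lost it, and 377 with a library left out kept it and 63 lost it. None turned its direction. DESeq2 called 6 members in NPC-ΔZF1, and it gave no adjusted p for 1 of the 9.

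With a replicate block, which fits the replicate number as a term, 8 members were called in NPC-ΔZF1, 2 in ESC-ΔZF1 and 6 in NPC Grb10 pA. The 1 call lost was that of Hoxc4 in NPC-ΔZF1. The numbers did not pair the libraries. Same-numbered libraries of different groups had correlations of their deviations from -0.326 to 0.122 in the rescue lines and from -0.329 to 0.191 in the truncation lines, and 4 of 8 and 4 of 18 libraries correlated best with their own number. The truncation lines had lower library totals, and 16 of the 34 members had under 10 counts in every library there. Of these, 6 had under 10 counts in every rescue library as well. The part of depth in the low counts was not tested.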
